A study of Mus musculus with 16 samples.

Results

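S100a8, S100a9, S100a4, S100a6, S100a10 and S100a11 are 6 of the 32286 features in each of the 16 single-cell RNA count matrices analysed here, and were taken by their gene symbols. The libraries came from BALB/c mice carrying 2208L, a transplantable Trp53-null mammary tumor that fills with neutrophils, and from tumor-free mice. IACS-70654 is an inhibitor of the bromodomain of the histone acetyltransferases CBP and P300, given in cycles of 3 days on and 2 days off. The series record puts treatment at 7 days for all mice, whereas the text on the marrow experiment puts it at 6 days, and the difference is not settled here. Tumors gave 1 library each from mice treated with vehicle, IACS-70654, an antibody to PD-1 (anti-PD-1), or IACS-70654 and anti-PD-1 together (combination). Bone marrow (BM) was sorted either as CD45+ Ter119- cells or as lineage-negative c-Kit+ CD45+ progenitors. Each sort had 2 libraries from tumor-free mice without drug (control), 2 from tumor-bearing mice given vehicle and 2 from tumor-bearing mice given IACS-70654. Cells of 3 mice were pooled, per treatment group by the series record and per sample by the methods. If both libraries of a group were parts of 1 pool, p-values take in spread between such libraries and none between pools of mice.

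S100 proteins are small proteins with a pair of EF-hand motifs, through which most but not all of them bind calcium, and mostly work as dimers. S100a8 and S100a9 pair as calprotectin, a very abundant cytosolic protein of neutrophils that chelates zinc and manganese and, once released, can act through the receptors Tlr4 and Ager. S100a4 binds nonmuscle myosin and is linked to cell movement. S100a6, S100a10 and S100a11 partner with annexins at membranes, and S100a10 with annexin A2 forms a complex that binds plasminogen at the cell surface.

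All 6 genes lie on mouse chromosome 3, in mm10 coordinates of the GENCODE annotation. S100a4 (chr3:90603771-90606045), S100a6 (chr3:90612882-90624181) and S100a8 (chr3:90668978-90670035) on the plus strand and S100a9 (chr3:90692632-90695721) on the minus strand together span 91.951 kb. S100a11 (chr3:93520488-93526287) and S100a10 (chr3:93555080-93564643), both on the plus strand, span 44.156 kb and start 2824.77 kb beyond the first group. S100a8 and S100a9 point toward each other across 22.596 kb.

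The sequence before the start of S100a8 and of S100a9 is shown because these 2 genes moved together in c-Kit+ progenitors. Both come from RefSeq on GRCm38.p6 and are written in the direction of the gene, at chr3:90668821-90668977 on the plus strand, a stretch around the TATA letters at chr3:90669029-90669058 on the same strand, and chr3:90695722-90695971 on the minus strand. RefSeq starts S100a8 downstream of the GENCODE gene start given above, so this stretch lies inside the GENCODE gene and before the RefSeq start, and the 250 bases searched before the RefSeq start are shown for S100a8 only in these 2 pieces. Capitals mark matches to TTNNGNAA, the letters searched for C/EBP factors, to GAGGAA for PU.1, and to TATAAA.
S100a8, upstream: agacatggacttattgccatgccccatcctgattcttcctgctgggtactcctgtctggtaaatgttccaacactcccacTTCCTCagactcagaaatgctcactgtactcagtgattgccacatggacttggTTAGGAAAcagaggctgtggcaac
S100a8, around the TATA letters: caagctttcctcTATAAAagcagctgacac
S100a9, upstream: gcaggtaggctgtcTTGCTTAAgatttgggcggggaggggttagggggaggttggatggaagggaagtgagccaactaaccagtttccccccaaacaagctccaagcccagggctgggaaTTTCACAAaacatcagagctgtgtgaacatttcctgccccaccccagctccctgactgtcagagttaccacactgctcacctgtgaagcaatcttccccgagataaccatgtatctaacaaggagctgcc
Counted back from the RefSeq start, S100a8 held TTAGGAAA at bases 117 to 110, TTCCTC, the opposite strand of the PU.1 letters, at 170 to 165 and, in lower case, at 36 to 31, and TATAAA at 30 to 25. S100a9 held TTGCTTAA at 236 to 229 and TTTCACAA at 130 to 123, both on the opposite strand, and no match to the PU.1, TATA or AP-1 (TGANTCA) letters. Among 32851 promoter windows of 250 bases, 36.8% held the C/EBP letters, 23.3% the PU.1 letters and 6.75% the AP-1 letters on either strand, and 7.59% held TATAAA on the strand of the gene. A match is a description of letters and not a binding site.

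Cells were grouped by clustering that left out every S100 gene, and classes were named for the cell type their marker genes resemble. A class level is given in CPM, the UMIs of a gene per 1000000 UMIs of that class in a library, and values of a group are given for replicate 1, then replicate 2. UMIs of a 3′ assay count molecules whatever their length. Samples were tagged and separated after sequencing, and libraries of the same sort or of the tumor shared 0 cell barcodes, while pairs from different sources shared 0 to 17. Libraries held 27816638 to 54510172 UMIs, with 4394 to 6154 cells kept, for CD45+ BM, 27427163 to 68415534 UMIs and 2836 to 7517 cells for c-Kit+ BM, and 15590289 to 43594797 UMIs and 1974 to 5064 cells for tumors. The 6 genes made up 15.4% to 24.8% of all UMIs in CD45+ libraries, 0.0589% to 0.218% in c-Kit+ libraries and 0.566% to 0.835% in tumor libraries. Calls required, in edgeR's quasi-likelihood test, that the adjusted p be below 0.01 and that the log2 change exceed 0.5 in either direction. The SE printed with an edgeR change is that change divided by the square root of the test's F statistic. This SE and the edgeR p-values rest on a spread moderated across genes. Both can be smaller than the 2 libraries of a group alone would give, so a very small p does not mean close replicates.

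S100a8 and S100a9 were higher with IACS-70654 in the neutrophil and the monocyte progenitors of c-Kit+ BM, before the stages at which calprotectin becomes abundant. S100a8 rose 2.94 ± 0.05 (log2, SE) over vehicle in late neutrophil granulocyte-monocyte progenitors (GMP) and 4.13 ± 0.06 in monocyte progenitors. S100a9 rose 2.00 ± 0.05 and 3.69 ± 0.08 in the same classes. Stem cell-like (HSC-like), megakaryocyte and erythroid cells of the same libraries kept S100a8 at 12.1 to 36.2 CPM in all groups, with no call.

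In late neutrophil GMP, S100a8 was at 523 and 413 CPM in control libraries, 678 and 852 with vehicle, then 5337 and 6666 with IACS-70654. Both IACS-70654 libraries lay far above the other 4, and vehicle lay above control without overlap. The vehicle against control difference of S100a8 was 0.60 ± 0.06 (adjusted p = 9.4e-15, edgeR quasi-likelihood) and was no longer called without control replicate 2 or without vehicle replicate 2, at 0.46 in both cases, or by DESeq2, in a contrast where 0.863% of genes were called. In this class 4.93% of all genes were called between IACS-70654 and vehicle. S100a9 of late neutrophil GMP was at 1184 and 772 CPM in control, 1249 and 1716 with vehicle, then 5336 and 6793 with IACS-70654. S100a9 was thus the higher of the pair in control and vehicle libraries, and both genes were at nearly equal levels with IACS-70654.

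Cycling neutrophil GMP showed a step with tumor bearing and a further step with drug. S100a8 was at 70.5 and 59.7 CPM in control, 284 and 273 with vehicle, then 2043 and 1649 with IACS-70654. The groups did not overlap, with log2 changes of 2.07 ± 0.15 for vehicle against control and 2.71 ± 0.06 for IACS-70654 against vehicle (adjusted p = 4.7e-17 and 2.8e-43, edgeR quasi-likelihood), where 0.376% and 3.02% of all genes were called. S100a9 in these cells was at 158 and 91.3 CPM, then 343 and 538, then 1892 and 1263, with changes of 1.64 ± 0.19 and 1.92 ± 0.10. Early neutrophil GMP, which carry little calprotectin, had S100a8 at 165 and 99.8 CPM in control, 113 and 46.8 with vehicle, then 305 and 509 with IACS-70654. The difference from vehicle was 2.10 ± 0.10 for S100a8 and 1.09 ± 0.09 for S100a9, with 3.26% of genes called, and the S100a9 call was lost under DESeq2.

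Monocyte progenitors had S100a8 at 35.9 and 26.3 CPM in control, 49.7 and 30.3 with vehicle, then 744 and 830 with IACS-70654. S100a9 of these cells was at 25.8 and 18.4 CPM, 29.7 and 20.0, and 291 and 438. Control and vehicle overlapped, whereas each IACS-70654 library was above both groups, and 6.04% of all genes were called against vehicle. Cycling monocyte progenitors showed the same order at lower levels, with S100a8 at 25.2 and 14.9 CPM in control, 27.1 and 36.6 with vehicle, then 244 and 284 with IACS-70654, a change of 3.08 ± 0.10 over vehicle where 3.1% of genes were called. S100a9 of cycling monocyte progenitors changed by 2.73 ± 0.15 over vehicle.

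**Figure D1:**
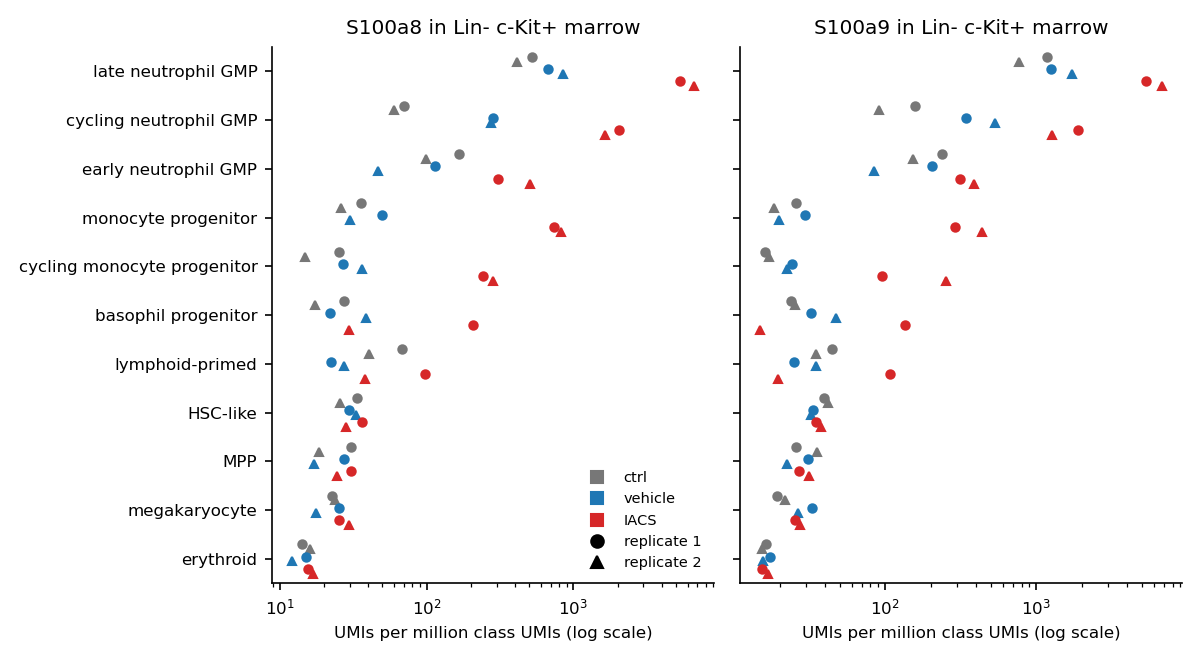
Level of S100a8 (left) and S100a9 (right) in classes of c-Kit+ BM, in CPM of the class on a log axis, with 1 point per library (grey, control; blue, vehicle; red, IACS-70654; circle, replicate 1; triangle, replicate 2). The IACS-70654 points of S100a8 lie between 244 and 6666 in neutrophil GMP and monocyte progenitors, and between 15.6 and 36.2 in HSC-like, MPP, megakaryocyte and erythroid cells, where the groups mix.

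Per cell, the change in late neutrophil GMP reached most cells. The median cell of late neutrophil GMP held 1 S100a8 UMI in both control libraries, 1 and 2 with vehicle, then 18 and 26 with IACS-70654. Cells without an S100a8 UMI were 36.7% and 46.5% of late neutrophil GMP in control, 33.5% and 31.4% with vehicle, then 11.4% and 9.12% with IACS-70654. Cells of this class also held more UMIs with IACS-70654 (median 9588 and 9249) than with vehicle (8775 and 8024). With each cell thinned to 3000 UMIs, cells with an S100a8 UMI were 44.8% and 34.9% in control, 47.1% and 52.7% with vehicle, then 76.8% and 81.3% with IACS-70654. The groups overlapped in none of these 3 readouts except the control and vehicle medians.

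In monocyte progenitors the change lay in few cells. Their median S100a8 count was 0 UMIs in all 6 libraries, while the 90th percentile was 1 in control and vehicle libraries and 18 and 15.8 with IACS-70654. The 10% of monocyte progenitors with the most S100a8 held 87.1% and 89.99% of its UMIs with IACS-70654, and the highest cell held 203 and 218. Thinned shares of monocyte progenitors with an S100a8 UMI were 8.14% and 5.24% in control, 8.99% and 8.41% with vehicle, then 26.5% and 23.7% with IACS-70654. HSC-like cells, which should lack calprotectin, had thinned shares of 8.59% and 8.33%, 9.33% and 9.30%, and 10.4% and 7.2% in the same libraries, with at most 3 S100a8 UMIs in a cell. After thinning, control and vehicle shares of monocyte progenitors were below the HSC-like share of the same library, and only the IACS-70654 shares exceeded it. The HSC-like share is not a like-for-like background. Median total UMIs were 9348 to 11356 in monocyte progenitors and 3998.5 to 4655 in HSC-like cells, so thinning removed more from monocyte progenitors. Unthinned, a mean of 24.7% of monocyte progenitors held S100a8 with vehicle and 40.2% with IACS-70654.

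Monocyte progenitors held 0.39 and 0.53 S100a9 UMIs per S100a8 UMI with IACS-70654 (95% exact intervals 0.372 to 0.411 and 0.498 to 0.56), against 1.00 and 1.02 in late neutrophil GMP of the same libraries (0.983 to 1.02 and 0.999 to 1.04). Both calls of the monocyte progenitors against vehicle remained without the 5% of cells with the highest doublet score. The part of RNA from other cells in these counts was not tested.

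The change differed between lineages. In limma's test of the difference of changes against vehicle, all neutrophil GMP minus HSC-like gave 2.42 ± 0.18 for S100a8 (adjusted p = 0.0193), in a comparison where 0.175% of genes were called, and 1.38 ± 0.25 for S100a9 (adjusted p = 0.0997), not called. All neutrophil GMP minus monocyte progenitors gave −1.72 ± 0.24 for S100a8 and −2.11 ± 0.28 for S100a9 (adjusted p = 0.0405 and 0.0382), where 0.79% of genes were called. The rise over vehicle was therefore larger on the log2 scale in monocyte progenitors, from a lower start. The pooled neutrophil GMP differed in stage mix, with late cells 196 of 371 and 129 of 258 in control. They were 1030 of 1622 and 395 of 644 with vehicle, then 519 of 1352 and 296 of 761 with IACS-70654. The part of stage mix in the differences of the pooled class was not tested. Over all members and class pairs tested in this way against vehicle there were 11 calls, 4 of them with a mean under 10 CPM in 1 of the classes. This count moved when 1 library was left out. In 1 of these pairs, mature neutrophils minus monocytes, 14.7% of genes were called, and no share of all genes over the pairs together is given here.

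Calls in 2 rarer classes rested on few cells. Basophil progenitors had S100a8 at 206 CPM in IACS-70654 replicate 1 and 29.6 in replicate 2, 1 cell of replicate 1 held 85 UMIs, and 2.05% of genes were called against vehicle. Without IACS-70654 replicate 1 the changes against vehicle in basophil progenitors were 0.07 for S100a8 and −1.38 for S100a9, neither called. Lymphoid-primed progenitors had S100a8 at 97.2 and 37.9 CPM with IACS-70654, with a highest cell of 85 UMIs in replicate 1, and their call against vehicle, where 2.09% of genes were called, was lost without IACS-70654 replicate 1, at 0.60, without vehicle replicate 1, at 1.29, and without the 5% of cells with the highest doublet score, at 0.48.

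Lists of related genes were small, and their counts stand beside 4.93% of all genes called in late neutrophil GMP and 6.04% in monocyte progenitors. Of 6 measured stage genes in late neutrophil GMP, 1 was called against vehicle, Lcn2, which encodes the siderophore-binding lipocalin 2, at 0.57 ± 0.12. Elane (neutrophil elastase) changed by 0.27 ± 0.03, Mpo (myeloperoxidase) by 0.13 ± 0.03 and Camp (the granule protein cathelicidin) by 0.07 ± 0.47 (log2, SE), none of them called, and the error of Camp leaves its change unresolved. Of 7 transcription factors of granulocytes and monocytes (Cebpa, Cebpb, Cebpd, Cebpe, Spi1, Gfi1, Stat3), 0 were called in late neutrophil GMP or in monocyte progenitors, with medians of −0.02 and 0.32 against 0.00 over all genes. Of 6 annexin and partner genes in late neutrophil GMP, 3 rose, with Anxa1 (annexin A1) at 1.91 ± 0.06, Anxa2 at 0.65 ± 0.12 and Anxa6 at 0.60 ± 0.16. Of 6 receptor and signalling genes, 0 were called in late neutrophil GMP and 2 rose in monocyte progenitors, Tlr4 at 0.97 ± 0.19 and Alcam at 0.73 ± 0.07. Of 6 subunits of the NADPH oxidase, 1 fell in each class, Cybb by 0.69 in late neutrophil GMP and Ncf1 by 0.67 in monocyte progenitors.

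Over all 16 classes of c-Kit+ BM, 23 of 84 member and class pairs were called between IACS-70654 and vehicle, 19 higher and 4 lower, where 3.77% of all gene and class pairs were called, 1.35% higher and 2.42% lower. Between vehicle and control 5 of 81 pairs were called, all higher, against 0.506% of all pairs, 0.326% higher and 0.18% lower. Between IACS-70654 and control 24 of 81 were called, 20 higher and 4 lower, against 3.27% of all pairs, 1.21% higher and 2.06% lower. S100a8 accounted for 7 of the 23 and S100a9 for 6. Of all gene and class calls between IACS-70654 and control, 37.1% were higher after TMM scaling and 50.2% as shares of UMIs.

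In CD45+ BM, S100a8 and S100a9 took a large part of the UMIs of neutrophils, and S100a9 fell with IACS-70654 in the cycling and immature stages after scaling to other genes. S100a8 took 91601 to 145218 CPM and S100a9 took 120894 to 188546 CPM in preNeu (cycling neutrophil precursors), immature and mature neutrophils. Neutrophils were 65.5% to 87.5% of the cells and gave 93.8% to 96.3% of the S100a8 UMIs of this sort. Because these 2 genes fill so much of a library, a change was computed both after TMM scaling, which sets the bulk of other genes level, and as a share of all UMIs. Against vehicle, the share-based median of all genes was higher than the TMM-based one by 0.22 in preNeu, 0.26 in immature and 0.11 in mature neutrophils, and 0.11 in early precursors.

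S100a9 of immature neutrophils was at 166288 and 166451 CPM in control, 188546 and 187880 with vehicle, then 137669 and 136224 with IACS-70654. In CPM the 3 groups did not overlap, with vehicle highest and IACS-70654 lowest. The change against vehicle was −0.72 ± 0.01 after TMM scaling and −0.46 as a share of UMIs, which is under the size threshold, where 20.7% of genes were called. In preNeu S100a9 was at 147388 and 152750 CPM in control, 170694 and 170106 with vehicle, then 128687 and 130668 with IACS-70654, a change against vehicle of −0.62 ± 0.03, or −0.39 as a share of UMIs, where 9.1% of genes were called. In mature neutrophils S100a9 changed by −0.45 ± 0.02 against vehicle and was not called. Counted per cell the order differed, with mean S100a9 UMIs of immature neutrophils at 862 in control, 1425 with vehicle and 1205 with IACS-70654. Mature neutrophils had 413, 611 and 684 in the same order.

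S100a8 of immature neutrophils was at 117496 and 116698 CPM in control, 145218 and 144037 with vehicle, then 133920 and 132808 with IACS-70654. Vehicle was again highest, and vehicle against control differed by 0.55 ± 0.01 (adjusted p = 1.8e-77, edgeR quasi-likelihood), or by 0.30 as a share of UMIs, where 6.54% of genes were called. Mature neutrophils had S100a8 at 91601 and 92826 CPM in control, 110504 and 109690.0 with vehicle, then 126092 and 126372 with IACS-70654, in steps that did not overlap but stayed under the size threshold. Against vehicle S100a8 changed by −0.38 ± 0.01 in immature, −0.25 ± 0.03 in preNeu and 0.08 ± 0.02 in mature neutrophils, none of them called, or by −0.12, −0.03 and 0.20 as a share of UMIs. In control and in vehicle libraries immature neutrophils stood highest in S100a8, then preNeu, then mature neutrophils, without overlap. With IACS-70654 immature neutrophils were again highest, but mature neutrophils, at 126232 ± 198 CPM (SD, n = 2), were above preNeu, at 124123 ± 527. All 3 stages were above early precursors, at 43280 to 63193 CPM.

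The stages of the later neutrophils were not shared evenly by the groups. Immature cells of IACS-70654 libraries made up 98.0% of cluster 7 (leading genes Stfa3, Cstdc5, Cstdc6), and control and vehicle cells filled clusters 3 and 4. Among mature cells, 98.7% of cluster 0 (Stfa2, Stfa3, Cstdc6) was from IACS-70654, 93.0% of cluster 1 and 90.5% of cluster 6 from vehicle, and 90.8% of cluster 5 from control, so stage and group cannot be told apart in full there. Clusters of early precursors and of preNeu held cells of all 3 groups.

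Per cell, S100a8 counts differed by stage and by group, and so did the total UMIs of a cell. Median total UMIs of mature neutrophils were 2655 and 2687 in control, 3594 and 3629 with vehicle, then 5355.5 and 5272 with IACS-70654. The part of total UMIs in the S100a8 counts was not tested. The median preNeu held 1229 and 1299 S100a8 UMIs in control, 1755.5 and 1739.5 with vehicle, then 1757 and 1809 with IACS-70654. The median mature neutrophil held 235 and 247 in control, 370.5 and 375 with vehicle, then 691 and 680 with IACS-70654, without overlap. Il1b-rich neutrophils had medians of 33 and 29.5, 24 and 23, and 127 and 131 S100a8 UMIs. S100a8 of the Il1b-rich class rose by 1.80 ± 0.05 over vehicle, where 18.7% of genes were called, but this call depended on where the stage was cut: with cells centred per library before staging, the change was −0.08.

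The ratio of S100a9 to S100a8, which needs no scaling between libraries, was lower with IACS-70654 at each neutrophil stage measured. In preNeu it was 1.35 and 1.37 S100a9 UMIs per S100a8 UMI in control, 1.35 and 1.34 with vehicle, then 1.04 and 1.05 with IACS-70654. Immature neutrophils had 1.42 and 1.43, then 1.30 and 1.30, then 1.03 and 1.03, and mature neutrophils 1.59 and 1.59, then 1.40 and 1.39, then 0.959 and 0.971. Control and vehicle were alike in preNeu and stood apart in immature and mature neutrophils, and IACS-70654 lay below both in each.

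The same shift began in the c-Kit+ sort and was seen in tumors. Early neutrophil GMP had ratios of 1.44 and 1.54 in control, 1.80 and 1.80 with vehicle, then 1.03 and 0.766 with IACS-70654. Cycling neutrophil GMP had 2.25 and 1.53, then 1.21 and 1.97, then 0.926 and 0.766. Late neutrophil GMP had ratios of 2.26 and 1.87 in control, 1.84 and 2.01 with vehicle, then 1.00 and 1.02 with IACS-70654. Tumor neutrophils had 3.28 S100a9 UMIs per S100a8 UMI with vehicle (95% exact interval 3.16 to 3.41), 3.31 with anti-PD-1 (3.19 to 3.44), 2.20 with IACS-70654 (2.10 to 2.30) and 2.30 with the combination (2.19 to 2.43). A smaller class of tumor neutrophils rich in Camp, described below, is not in these ratios. The ratio is given as a description that was not tested, and the intervals cover counting error only.

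**Figure D2:**
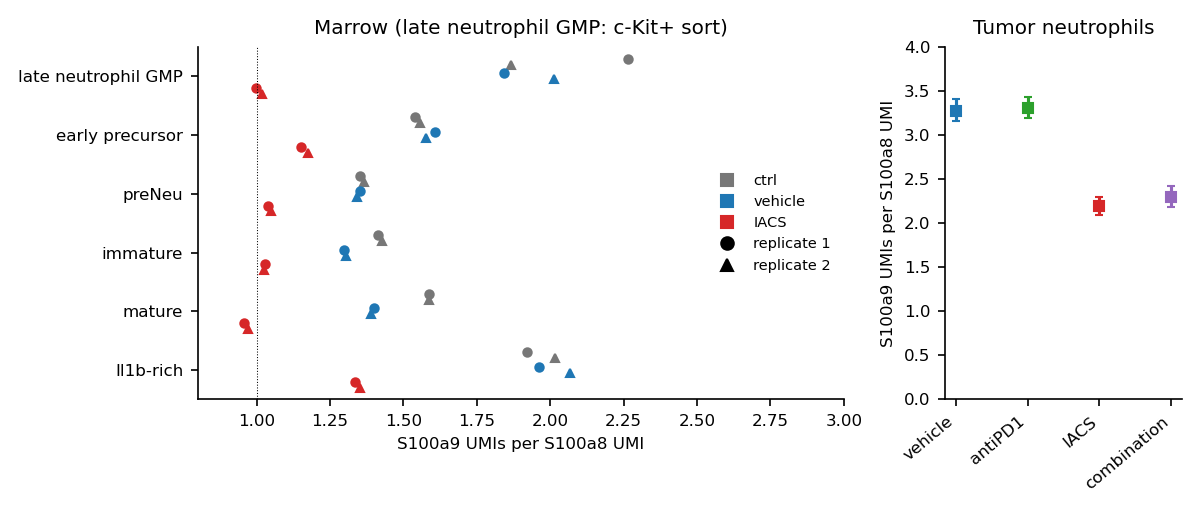
S100a9 UMIs per S100a8 UMI by stage in marrow (left, 1 point per library, dotted line at 1) and in tumor neutrophils without the Camp-rich class (right, 1 library per treatment, bars are 95% exact intervals of counting error). IACS-70654 libraries lie between 0.959 and 1.35 at the 6 marrow stages drawn, left of control and vehicle at each of them, and both tumor libraries with IACS-70654 lie at 2.20 and 2.30 against 3.28 and 3.31 without it.

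Tumor neutrophils here leave out a smaller Camp-rich class of 23 cells with vehicle, 42 with anti-PD-1, 9 with IACS-70654 and 6 with the combination. In its vehicle and anti-PD-1 libraries S100a8 lay at 38209 to 48193 CPM and S100a9 at 77921 to 91314. Levels over all tumor neutrophils can differ in order from those below and are not given. In the larger class S100a8 was at 6189 CPM with vehicle, 5144 with anti-PD-1, 7175 with IACS-70654 and 5285 with the combination. S100a9 was at 20290 CPM with vehicle, 17035 with anti-PD-1, 15759 with IACS-70654 and 12168 with the combination. The log2 ratio to vehicle was 0.21 (95% interval 0.14 to 0.29) for S100a8 and −0.36 (−0.41 to −0.32) for S100a9 with IACS-70654, both under 0.5 in size, in a class where 32.8% of genes passed 0.5. With the combination S100a9 was at −0.74 (−0.79 to −0.69), where 33.8% of genes passed. There is 1 library per treatment in tumors, so these ratios compare libraries and carry no test.

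Monocyte-lineage cells of CD45+ BM held far less S100a8, and the cycling monocyte precursors held more with IACS-70654. Their S100a8 was at 4349 and 5286 CPM in control, 8379 and 6619 with vehicle, then 13370 and 14759 with IACS-70654, without overlap. The change against vehicle was 0.93 ± 0.07 for S100a8, where 4.24% of genes were called, and 0.45 ± 0.09 for S100a9, not called. Their mean over 6 libraries, 8794 CPM, lay among those of types without calprotectin, from 4243 in basophils to 16933 in T or NK cells. With IACS-70654 the precursors had a mean of 14064 CPM, against 20357 in B cells, 12840 in T or NK cells and 11550 in plasmacytoid dendritic cells. The part of RNA from other cells in this rise was not tested. Non-cycling monocytes had S100a8 at 7090 and 7135 CPM, 10247 and 8133, and 8023 and 9968, where vehicle and IACS-70654 overlapped, and their median cell held 19.5 to 23 S100a8 UMIs while the top 10% of the monocytes held 67.0% to 76.6% of them.

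S100a8 was also counted in most B cells of CD45+ BM, which do not make calprotectin. The median B cell held 13 and 13 S100a8 UMIs in control, 12 and 13 with vehicle, then 15 and 13 with IACS-70654. Medians of T and NK cells were 13.5 to 17, of plasmacytoid dendritic cells 18 to 20 and of basophils 17 to 22, so each type without calprotectin carried a like number in each group, and the medians of monocytes overlapped those of basophils and plasmacytoid dendritic cells. Thinned to 1000 UMIs, 93.3% to 97.0% of B cells held S100a8, so in this sort the share of cells with a UMI does not separate cell types.

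Sums over such classes rested on few cells. The 10% of B cells with the most S100a8 held 57.4% to 90.5% of its UMIs, with 1376 to 2079 UMIs in the highest cell of each library. The B cell call of S100a8 for IACS-70654 against vehicle, 0.88, where 9.29% of genes were called, was lost without IACS-70654 replicate 1, at 0.32, or without vehicle replicate 1 or 2, at 1.08 and 0.68, and by DESeq2, without the filter on low counts and with a minimum of 50 cells. The groups drew on different B cell clusters, since cluster 12 (leading genes Agbl1, Ebf1, Bach2) was 79.1% control, 19.8% vehicle and 1.1% IACS-70654 cells, and cluster 19 (Bank1, Cd74, H2-Aa) was 67.8%, 2.5% and 29.7%.

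T and NK cells were 23 to 133 per library, and their S100a8 was at 11125 and 6096 CPM in control, 30892 and 27809 with vehicle, then 11686 and 13992 with IACS-70654. Vehicle lay above both other groups. Against control, vehicle was higher by 1.80 ± 0.20 for S100a8 and 1.64 ± 0.19 for S100a9, where 0.857% of genes were called, and against vehicle IACS-70654 changed by −1.26 ± 0.19 and −1.39 ± 0.19, where 0.63% were called. Of these 4 calls 3 held under all 17 alternatives, and that of S100a8 against vehicle was lost without IACS-70654 replicate 1, at −1.14. The top 10% of T and NK cells held 54.2% to 80.5% of the S100a8 UMIs, while the median cell held 13.5 to 17 in the 6 libraries.

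**Figure D3:**
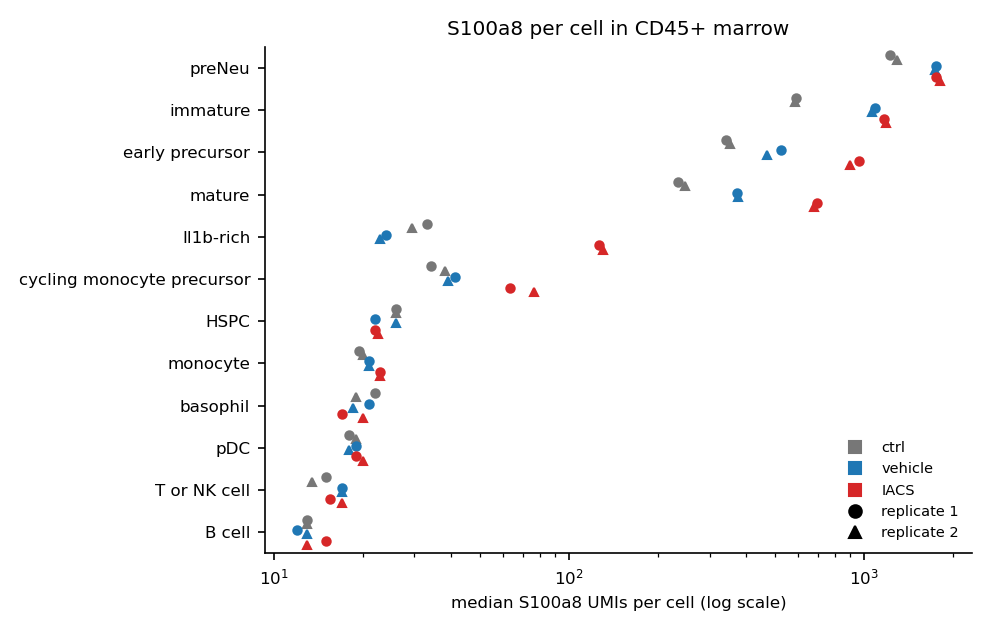
Median S100a8 UMIs per cell in classes of CD45+ BM on a log axis, with 1 point per library (grey, control; blue, vehicle; red, IACS-70654). Lymphoid, dendritic, basophil, HSPC and non-cycling monocyte classes lie between 12 and 26 in every library, and neutrophil stages between 23 and 1809.

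Over the 12 classes of CD45+ BM, 12 of 70 member and class pairs were called between vehicle and control, 9 higher and 3 lower, where 2.45% of all gene and class pairs were called, 1.31% higher and 1.14% lower. Between IACS-70654 and vehicle 17 of 70 were called, 9 higher and 8 lower, against 9.51% of all pairs, 4.71% higher and 4.8% lower. Between IACS-70654 and control 19 of 70 were called, 13 higher and 6 lower, against 9.03%, 4.29% higher and 4.74% lower. Of all calls, 53.4% were higher between vehicle and control after TMM scaling and 26.2% as shares of UMIs, and between IACS-70654 and vehicle 49.5% and 64.6%.

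S100a4 was highest in monocytes in CD45+ BM, and monocyte-lineage cells of both BM sorts and of the tumor held less of it with IACS-70654. CD45+ monocytes held more S100a4 than any other class in each of the 6 libraries, at 2378 and 2251 CPM in control, 2043 and 2015 with vehicle, then 1051 and 1111 with IACS-70654. The change against vehicle was −0.92 ± 0.05 (adjusted p = 1.9e-15, edgeR quasi-likelihood), where 5.72% of genes were called. Cycling monocyte precursors had S100a4 at 1040 and 880 CPM, 755 and 801, and 201 and 209.6, a change of −1.90 ± 0.06. In neither class did an IACS-70654 library reach the others.

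In c-Kit+ BM the few T or NK cells held the most S100a4, with a mean of 523 CPM over 4 libraries. Monocyte progenitors had S100a4 at 33.7 and 27.9 CPM in control, 27.1 and 30.1 with vehicle, then 10.6 and 11.3 with IACS-70654. It fell by 1.41 against vehicle in monocyte progenitors, where 6.04% of genes were called, and by 0.88 in cycling monocyte progenitors, where the call was lost without IACS-70654 replicate 1, at −0.80, and by DESeq2. HSC-like cells went the other way, with S100a4 at 18.7 and 22.2 CPM in control, 55.8 and 29.5 with vehicle, then 73.3 and 92.2 with IACS-70654. IACS-70654 against control was 1.91 ± 0.20 in HSC-like cells, where 2.77% of genes were called, while the call against vehicle, 0.76, was lost without vehicle replicate 2, at 0.50, without IACS-70654 replicate 2, at 0.63, and by DESeq2. Lymphoid-primed progenitors had S100a4 at 11.9 and 6.98 CPM, 24.9 and 24.9, and 44.6 and 74.8, a change of 2.46 ± 0.33 against control where 2.44% of genes were called.

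Tumor monocytes, macrophages and dendritic cells had less S100a4 in both libraries with IACS-70654. Over the 4 tumor libraries mean S100a4 was 379 CPM in dendritic cells, 266 in T or NK cells and 232 in monocytes, with ranges that overlapped. Tumor monocytes held 340.5 CPM with vehicle, 343 with anti-PD-1, 126 with IACS-70654 and 118 with the combination, a log2 ratio to vehicle of −1.44 (95% interval −1.63 to −1.24) and −1.53 (−1.72 to −1.33) for the last 2. Macrophages held 59.1, 34.1, 17.01 and 16.2 CPM of S100a4 in the same order, and dendritic cells 564, 475, 207 and 270.3. Of all genes, 22.2% passed a log2 ratio of 0.5 with IACS-70654 and 23% with the combination in tumor monocytes, and 18.1% and 18.3% in macrophages.

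**Figure D4:**
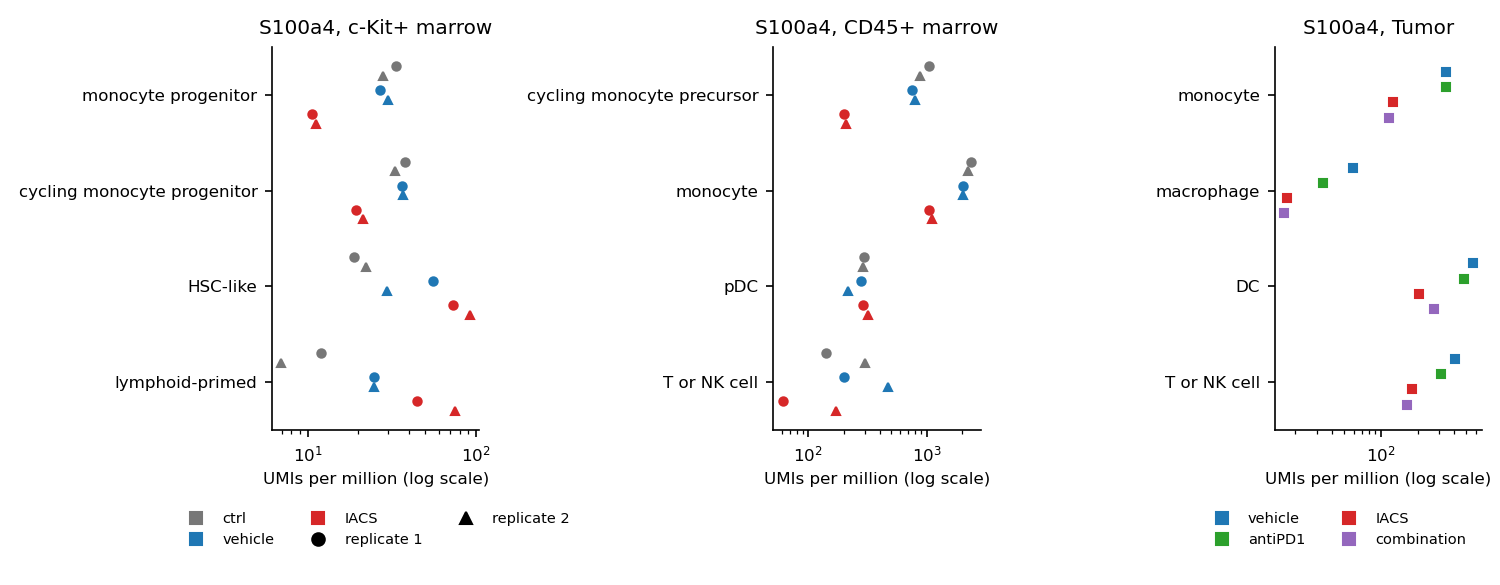
S100a4 in CPM of the class on log axes, in classes of c-Kit+ BM (left), CD45+ BM (middle) and tumors (right), with 1 point per library. IACS-70654 libraries lie lowest in monocyte progenitors (10.6 and 11.3), monocytes (1051 and 1111) and tumor monocytes (126, with 118 in the combination), and highest in HSC-like cells (73.3 and 92.2).

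S100a6 was highest in mature neutrophils, and from preNeu to mature neutrophils it was higher with vehicle than in control. Mature neutrophils stood above the next class in each library, with S100a6 at 8409 and 8219 CPM in control, 11263 and 10990.3 with vehicle, then 12357 and 12235 with IACS-70654. Vehicle was above control by 0.54 ± 0.02, or 0.42 as a share of UMIs, and by 0.70 ± 0.02 in immature neutrophils, or 0.45, where 8.14% and 6.54% of genes were called. PreNeu had S100a6 at 379 and 410.1 CPM in control, 654 and 714 with vehicle, then 1156 and 1149 with IACS-70654. PreNeu changed by 0.94 ± 0.05 for vehicle against control, where 3.24% of genes were called and where the difference from the change in mature neutrophils, 0.37 ± 0.11, was not called (limma, adjusted p = 0.0747), and by 0.53 ± 0.05 for IACS-70654 against vehicle, a call lost without vehicle replicate 1, at 0.47. Il1b-rich neutrophils went the other way, with S100a6 at 3456 and 3406 CPM in control, 1699.6 and 1829 with vehicle, then 5538 and 5692 with IACS-70654. Their vehicle against control change was −1.04 ± 0.07, where 2.8% of genes were called, and was 0.04 with cells centred per library before staging.

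In monocytes S100a6 went down with IACS-70654, from 3292 and 3356 CPM with vehicle to 2041 and 2095, with 3044 and 3019 in control. The change against vehicle was −0.70 ± 0.04 in monocytes and −0.84 ± 0.05 in cycling monocyte precursors. The change of S100a6 in mature neutrophils exceeded that in monocytes by 0.83 ± 0.12 (limma, adjusted p = 0.00943), where 14.7% of genes were called. HSC-like cells had S100a6 at 47.9 and 49.5 CPM in control, 66.7 and 55.5 with vehicle, then 119.8 and 120.7 with IACS-70654, a rise of 0.91 ± 0.10 over vehicle without overlap, where 4.14% of genes were called.

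In BM S100a10 was low in neutrophils and higher in monocyte, T or NK and basophil-lineage cells. In CD45+ BM its mean was 1131 ± 172 CPM (SD, n = 6) in cycling monocyte precursors, 846 ± 67.0 in monocytes, 823 ± 149 in T or NK cells and 581 ± 92.7 in basophils, against 7.47 to 24.2 in the neutrophil classes. Neighbours in the order of these 4 non-neutrophil classes overlapped. Tumor neutrophils had S100a10 at 208 to 593 CPM over the 4 libraries, a range that overlapped that of tumor macrophages, at 191 to 293. The smaller Camp-rich class of tumor neutrophils held 86.2 to 115.6 CPM. Progenitors with Cpa3 and Gzmb, genes of mast cells and basophils, held 1008 to 1348 CPM of S100a10 in c-Kit+ BM, above the next class in each library. Erythroid progenitors had S100a10 at 196 and 204 CPM in control, 173 and 204 with vehicle, then 80.2 and 77.1 with IACS-70654. They fell by 1.20 against vehicle (adjusted p = 1.0e-27, edgeR quasi-likelihood), where 7.36% of genes were called, with both IACS-70654 libraries below all others. Late neutrophil GMP rose by 0.70 ± 0.08, from 56.2 and 59.2 CPM with vehicle to 100.9 and 89.2.

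S100a11 rose from late neutrophil GMP to mature neutrophils and was lower again in Il1b-rich neutrophils. Its mean over 6 libraries was 649 ± 21.1 CPM (SD, n = 6) in late neutrophil GMP of the c-Kit+ sort, and in CD45+ BM 1347 ± 99.3 in preNeu, 2889 ± 169 in immature and 6070 ± 268 in mature neutrophils. Il1b-rich neutrophils had a mean of 4599 ± 716 CPM. S100a11 of this class was called higher with IACS-70654 than with vehicle, at 0.70, where 18.7% of genes were called. That change had the other sign with cells centred per library before staging. Mature neutrophils stood above the next class in each library. Erythroid progenitors had S100a11 at 48.4 and 49.0 CPM in control, 43.7 and 50.2 with vehicle, then 32.7 and 29.2 with IACS-70654. Their change of −0.52 ± 0.09 against vehicle was no longer called without vehicle replicate 2 or IACS-70654 replicate 2, at −0.46 in both cases.

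In tumor cells S100a6, S100a10 and S100a11 were all higher in both libraries with IACS-70654. S100a6 was at 1490.0 CPM with vehicle, 1449 with anti-PD-1, 3358 with IACS-70654 and 3876 with the combination. S100a10 was at 3197, 3066, 7297 and 7514 CPM, and S100a11 at 1901, 1870 and then 4626 and 4955, in the same order. Log2 ratios to vehicle were 1.17, 1.19 and 1.28 with IACS-70654, −0.04, −0.06 and −0.02 with anti-PD-1, and 1.38, 1.23 and 1.38 with the combination, for S100a6, S100a10 and S100a11. Of all genes of tumor cells, 26.7% passed 0.5 in size with IACS-70654, 9.18% with anti-PD-1 and 25.6% with the combination.

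Tumor cells were 275 with vehicle, 401 with anti-PD-1, 526 with IACS-70654 and 809 with the combination, and their clusters were not shared evenly. Cluster 5 (leading genes Hmga2, Krt8, Mast4), which had high S100a6, S100a10 and S100a11 in every library, held 29 vehicle cells, 40 anti-PD-1 cells, 199 IACS-70654 cells and 273 combination cells. Within cluster 5 the log2 ratio of IACS-70654 to vehicle was −0.13 for S100a6, 0.15 for S100a10 and 0.30 for S100a11. Within cluster 10 (Naaladl2, Cpm, Zfp521) the ratios were −0.04, 0.44 and 0.43, and within cluster 12 (Alkal2, Aqp5, Tesc) 0.60, 1.05 and 0.87. Cluster 12, which was low in S100a6, held 92 vehicle, 141 anti-PD-1, 20 IACS-70654 and 42 combination cells. Cluster 18 (Gbp2b, Rsad2, Gbp4) held 2, 1, 50 and 93 cells in the same order, too few without IACS-70654 for a ratio, and had S100a10 at 14045 and 11810 CPM and S100a11 at 8493 and 8101 in the IACS-70654 and combination libraries. Within cluster 9 (Igfbp5, Cpm, Foxq1) the ratios were 0.22, 0.64 and 0.79. Cluster 4 (Lcn2, Slpi, Tinagl1), a class of its own outside these tumor cells with 91 vehicle and 163 IACS-70654 cells, had ratios of 0.74, 1.12 and 1.22, so that S100a10 and S100a11 differed there about as much as over the tumor cell class. S100a10 and S100a11 were higher within each of these 5 clusters, and S100a6 within 3 of them. S100a8 of tumor cells ranged from 43.1 to 89.6 CPM over the libraries, with 496 UMIs in the highest cell of the combination library, and S100a9 from 31.7 to 150.8 CPM.

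**Figure D5:**
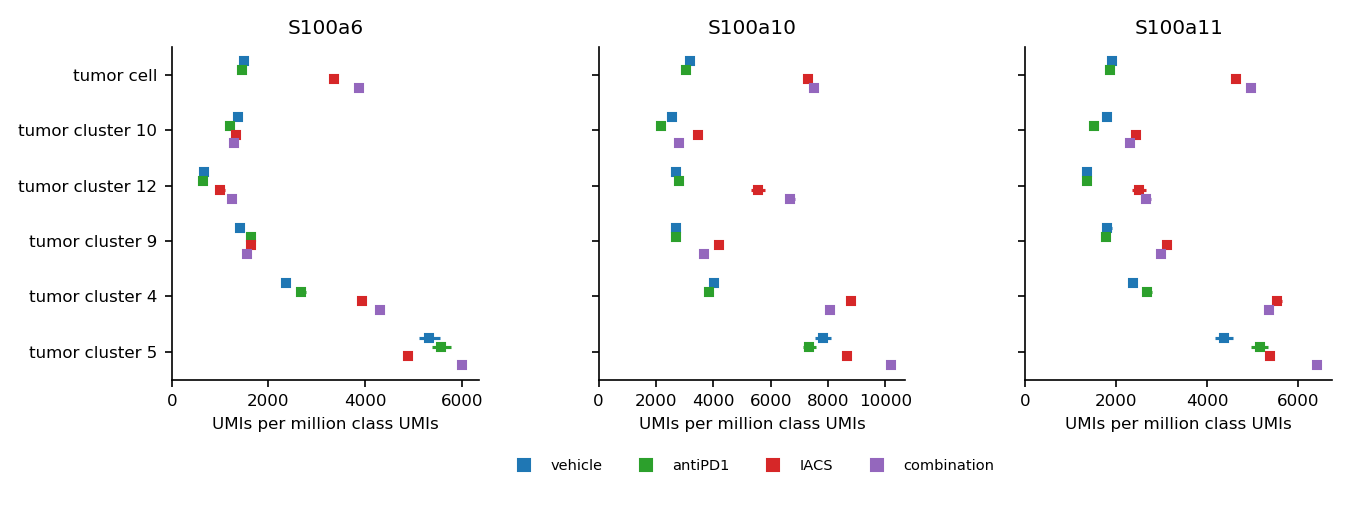
S100a6, S100a10 and S100a11 in all tumor cells of the class and in 5 clusters of 2208L tumors, in CPM of the class on an axis from 0, with 1 square per library and 95% exact intervals of counting error, mostly narrower than the square. For all tumor cells the IACS-70654 and combination squares lie at 3358 and 3876 for S100a6, against 1490.0 and 1449 for vehicle and anti-PD-1, and S100a6 of cluster 5 lies at 4885 to 6010 in every library.

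Over tumor classes, 35 of 58 member and class pairs passed a log2 ratio of 0.5 with an interval without 0 for IACS-70654 against vehicle (13 higher, 22 lower), where 13% of all gene and class pairs with over 3 UMIs in both libraries did (6.86% higher, 6.16% lower). For anti-PD-1 it was 18 of 67 (8 higher, 10 lower) against 5.22% (2.93% and 2.29%), and for the combination 29 of 58 (16 higher, 13 lower) against 13.4% (6.97% and 6.39%). Genes with few UMIs have wide intervals. The anti-PD-1 library had more S100a8 in macrophages, at 160 CPM against 46.6 with vehicle, and in monocytes, at 229 against 53.1, but 95.4% and 95.9% of these UMIs came from the top 10% of the cells. In these classes 10.8% and 15% of genes passed 0.5.

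Of 16 S100 genes listed, S100a1, S100a13, S100a14 and S100a16 reached a mean of 10 CPM in at least 1 of 44 classes besides the 6 genes described here. S100a1 and S100a13 did so in 43 and 44 classes but never exceeded 309.6 and 232 CPM, while S100a14 and S100a16 did so in 4 and 6 classes, at up to 935 and 598 CPM in tumor cells rich in the keratin gene Krt14. S100a3, S100a5, S100a7a, S100b, S100g and S100z stayed below 10 CPM in every class.

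Across the 44 classes and 5574 genes compared, by Pearson's r of class means on the log2 scale, S100a8 was most like S100a9 (r = 0.99), Wfdc21 (0.98) and Cstdc5 (0.94). S100a4 was most like Ccr2 (0.84), the chemokine receptor of inflammatory monocytes, and Ptpro (0.76). S100a6 was most like Anxa2 (0.91), its annexin partner, and S100a11 like Atp11a (0.89), Mapk13 (0.88) and Anxa1 (0.87). S100a10 was most like Rab18 (0.87) and Tsg101 (0.84). Classes share libraries, and no test was made of these correlations.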

How the data were processed

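Matrices of raw UMI counts for 16 10x libraries were deposited by the authors, made with Cell Ranger (7.1.0 for tumor and 7.2.0 for BM, per the file headers) on mm10; the submitters' processing notes also name Seurat. Kept barcodes had over 200 and under 6000 genes, with mitochondrial UMIs of 10% or less. Cells were clustered without S100 genes and named from marker lists. Scrublet (scanpy 1.11.5) called 0 to 76 cells per library, and its calls were not removed. Clusters with a high median doublet score could be left unnamed, and cells of unnamed clusters entered no class. UMIs were summed per library and class (at least 20 cells) and tested with edgeR 4.0.16 (filterByExpr, TMM, quasi-likelihood, Benjamini-Hochberg over all genes of a class, R 4.3.3), with the 6 libraries of a sort in 1 fit. Differences of change used limma 3.58.1 on log2(CPM + 5), called at an adjusted p under 0.05. Tumor libraries were compared by ratios with exact intervals. UMI intervals cover counting error only. The scripts were tested on simulated data. The named genes are the 6 members, genes of lists for receptors, annexins, oxidase, transcription factors and stages, and the 5 genes most like each member. Members and lists were chosen with earlier results of these data known.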

Additional observations from a re-analysis of the deposited data

Results flagged for a closer look

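In each pair of classes below, the change of a gene in the second class was subtracted from that in the first, and the difference passed limma's adjusted p of 0.05 (log2, SE). For neutrophil GMP minus HSC-like cells, the difference was 2.42 ± 0.18 for S100a8 against vehicle, and 3.26 ± 0.18 for S100a8 and 2.53 ± 0.25 for S100a9 against control. For neutrophil GMP minus monocyte progenitors against vehicle, it was −1.72 ± 0.24 for S100a8, −2.11 ± 0.28 for S100a9, 0.63 ± 0.08 for S100a10 and 0.84 ± 0.13 for S100a6, which lay at 2.97 to 7.62 CPM in neutrophil GMP and entered the test through monocyte progenitors. The stage mix of the pooled neutrophil GMP differed between groups, as given above. Shares of all genes called are at hand for only some pairs, and only for IACS-70654 against vehicle. They were 0.175% for neutrophil GMP minus HSC-like cells, 0.79% for neutrophil GMP minus monocyte progenitors and 14.7% for mature neutrophils minus monocytes. Every other pair or contrast of this section lacks such a share. Whether a member called there stands out from all genes therefore cannot be told.

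For preNeu minus mature neutrophils, S100a6 differed by 0.61 ± 0.11 and S100a10 by 0.41 ± 0.12 for IACS-70654 against vehicle, and S100a6 by 0.97 ± 0.11 and S100a8 by −0.28 ± 0.09 for IACS-70654 against control. For immature minus mature neutrophils, S100a8 differed by −0.31 ± 0.07 and S100a10 by 0.32 ± 0.08 against vehicle, and S100a8 by −0.27 ± 0.07 against control. S100a10 averaged only 7.47 CPM in preNeu and 9.87 in immature neutrophils, and with TMM scaling both of its differences missed the threshold, at an adjusted p of 0.056 and 0.082. TMM scaling also added 4 differences against vehicle, S100a8 of preNeu minus mature neutrophils (−0.33, adjusted p = 0.039), S100a6 and S100a9 of immature minus mature neutrophils (−0.26 and −0.27, adjusted p = 0.043 and 0.037) and S100a4 of mature neutrophils minus B cells (−0.78, adjusted p = 0.042).

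For mature neutrophils minus monocytes, S100a4 differed by 0.75 ± 0.13 against vehicle and 0.69 ± 0.13 against control, and S100a6 by 0.83 ± 0.12 and 1.12 ± 0.12. For mature neutrophils minus B cells, S100a4 differed by 2.12 ± 0.20 for vehicle against control and by 1.44 ± 0.20 for IACS-70654 against control, where S100a6 differed by −1.14 ± 0.24, S100a9 by −1.58 ± 0.40 and S100a11 by −1.05 ± 0.25. S100a4 averaged 8.97 CPM in mature neutrophils, near the pseudocount of 5 CPM, so that its differences mostly restate the change in the other class, and vehicle B cells held 2 S100a4 UMIs in each library. The B cells of the groups fell in different clusters, with cluster 19 at 67.8% control, 2.5% vehicle and 29.7% IACS-70654 cells, and the vehicle against control call was lost with a pseudocount of 1 CPM. The B cell values of S100a9 rest on the few cells with most of its UMIs.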

How the results depend on the processing

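Of 100 called member and class pairs, 47 were called under every alternative run, 29 were lost without 1 library, 21 of the 88 with an adjusted p under DESeq2, 11 without the top 5% of doublet scores, 7 with library totals only and 0 under RLE scaling or without the 6 members in the totals. The last doublet, library-total and high-doublet-cluster settings were chosen after seeing the data. The replicate numbers did not pair libraries (correlations −0.034 to 0.076), and a replicate block lost 2 pairs, S100a4 and S100a6 in lymphoid-primed progenitors against vehicle. At an adjusted p under 0.05 and no minimum change, called pairs in CD45+ BM were 29 for vehicle against control, 33 for IACS-70654 against vehicle and 37 for IACS-70654 against control, in place of 12, 17 and 19, and in c-Kit+ BM 14 and 37 in place of 5 and 23 for the first 2. At that threshold, all genes called for IACS-70654 against vehicle ran from 18 of 8632 in HSPC to 5528 of 10930 in mature neutrophils of CD45+ BM. In c-Kit+ BM they ran from 11 of 2930 in T or NK cells to 2890 of 11627 in erythroid progenitors. For vehicle against control they ran from 2 of 8632 in HSPC to 2576 of 10720 in immature neutrophils of CD45+ BM. In c-Kit+ BM that contrast ran from 0 of 2930 in T or NK cells to 657 of 11205 in monocyte progenitors. For IACS-70654 against control in CD45+ BM the range was 25 of 8632 in HSPC to 5088 of 10930 in mature neutrophils. No share over all gene and class pairs is given at that threshold, so whether the members stand out there cannot be told. DESeq2 called 2 of 4 c-Kit+ member pairs for vehicle against control. Over all genes it called 1370, 5327 and 5530 gene and class pairs in CD45+ BM, in place of 2508, 9725 and 9240, and 226, 1776 and 1762 in c-Kit+ BM, in place of 684, 5224 and 4413. Leaving out 1 library gave c-Kit+ ranges of 447 to 729, 2786 to 5414 and 2860 to 4509. Differences of change between classes were 1, 11 and 11 calls for the same contrasts, 0, 7 and 6 with a pseudocount of 1 CPM, 0, 7 and 7 without the filter on low CPM, and 0 to 1, 1 to 13 and 4 to 8 without 1 library. With stages after centring per library, Il1b-rich neutrophils changed sign, with S100a6 at 0.038 for vehicle against control, S100a6, S100a8, S100a9 and S100a11 at −0.37, −0.083, −0.32 and −0.21 against vehicle, and S100a6, S100a8 and S100a9 at −0.33, −0.094 and −0.33 for IACS-70654 against control, where S100a6 was −0.31 without the high-doublet cluster. S100a9 of basophil progenitors ranged without 1 library from −1.38 to 1.80 against vehicle and from −0.79 to 2.39 against control, and was −0.72 and −0.26 without the top doublet scores, as S100a6 of B cells was −0.082 against vehicle. The IACS-70654 minus vehicle share of monocyte progenitors with S100a8 was 16.4 points, or 14.2 with at least 2 UMIs, that of late neutrophil GMP 29.2 points, or 22.2 unthinned, and that of monocyte progenitors with S100a9 9.36 points, or 6.48 unthinned and 7.94 with at least 2 UMIs. The IACS-70654 minus vehicle difference of the S100a9 to S100a8 ratio was −0.301 in preNeu (−0.290 after centring), −0.275 in immature (−0.308 without the high-doublet cluster) and −0.429 in mature neutrophils (−0.389 and −0.373). The causes of these shifts were not tested. Levels under about 10 CPM, such as S100a6 in late neutrophil GMP, rest on few UMIs.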
